A study of Mus musculus with 8 samples.

Results

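The genes described here are 9 that mark or build the osteoclast, the bone-resorbing cell, read in libraries of sorted osteoblasts, the bone-forming cells. They were chosen by name: Ctsk, Acp5, Calcr, Dcstamp, Ocstamp, Atp6v0d2, Itgb3, Oscar and Nfatc1. Values were at hand for 7 of the 9, among 21154 genes in all, and 6 of those 7 passed the filter on low counts, which kept 15373 genes. Calcr, the calcitonin receptor, and Dcstamp, a membrane protein needed for cell fusion, were not analysed here. Every library came from female Col2.3-GFP mice, in which a fragment of the Col1a1 promoter drives green fluorescent protein in bone-forming cells, and GFP-positive cells were sorted from digested bone chips after the marrow had been spun out. The mice, 8 to 10 weeks old, were given 4 intravenous injections at intervals of 1 week, either of doxorubicin at 5 mg/kg (DOX, 5 libraries) or of phosphate-buffered saline (PBS, 3 libraries), and bone was taken 8 weeks after treatment. Libraries came in 2 batches: PBS replicate 1 was in batch 1 with the first 2 DOX replicates, and the remaining 5 libraries were in batch 2. The library titled DOX replicate 1 has a treatment tag of PBS, so each group value below rests on its title. The labels call the libraries biological replicates and do not say how many mice each holds.

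Osteoclasts arise by fusion of cells of the monocyte lineage. RANKL, made by osteoblasts and osteocytes, binds the receptor RANK on the precursors, and costimulatory receptors that signal through the adaptors DAP12 (Tyrobp) and FcRγ (Fcer1g) act beside it to induce the transcription factor NFATc1 (Nfatc1). NFATc1 then switches on genes of fusion (Dcstamp, Ocstamp, Atp6v0d2), attachment (Itgb3), costimulation (Oscar) and resorption (Ctsk, Acp5). Several of these genes are not restricted to osteoclasts: Itgb3 is also a platelet integrin, Nfatc1 is also active in lymphocytes and endothelium, and Ctsk is also known from cells of the periosteum and the osteoblast lineage.

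Library totals ran from 39419027 to 44299591 counts. Levels are in CPM, counts relative to library size, where the trimmed mean of M values (TMM) multiplied the library totals by factors of 0.806 to 1.30, lowest in PBS replicate 3 and highest in PBS replicate 1. Type I collagen genes took 19.1% of counts in PBS replicate 1 and 23.2% in DOX replicate 1, against 26.0% to 39.5% in the other 6 libraries. PBS replicate 1 and DOX replicate 1, the library with the PBS treatment tag, thus had the lowest collagen shares, with DOX replicate 4 next at 26.0%. They also had the highest factors, 1.30 and 1.26, with DOX replicate 4 next at 1.05. The fold changes below are also given without PBS replicate 1 and DOX replicate 1. The libraries carried the markers of their labelled cell type: the osteocalcin gene Bglap averaged 19344 ± 5720 CPM over the PBS libraries (SD, n = 3) and 19359 ± 2077 CPM over the DOX libraries (SD, n = 5). Since nothing says that each library came from separate mice, p-values measure only the spread between these libraries.

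The 7 genes did not form a set of like level. Per kilobase of exon, Ctsk stood at 226 CPM, averaged over the 8 libraries, 39.2 times the level of Nfatc1 (5.78), 66.1 times that of Itgb3 (3.43) and 76.3 times that of Acp5 (2.97). Atp6v0d2 (0.234 CPM per kilobase), Oscar (0.124) and Ocstamp (0.0772) followed far below. The ranges over libraries did not overlap between Ctsk and Nfatc1, nor between Acp5 and Atp6v0d2, so the order had 3 steps. Within the steps neighbours were not separated: Nfatc1 exceeded Itgb3 in 7 of 8 libraries, Itgb3 exceeded Acp5 in 5 of 8, Atp6v0d2 exceeded Oscar in 5 of 8 and Oscar exceeded Ocstamp in 5 of 8. In mean CPM, Ctsk lay above 98.5% of the genes tested and Ocstamp above 6.13%.

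**Figure D1:**
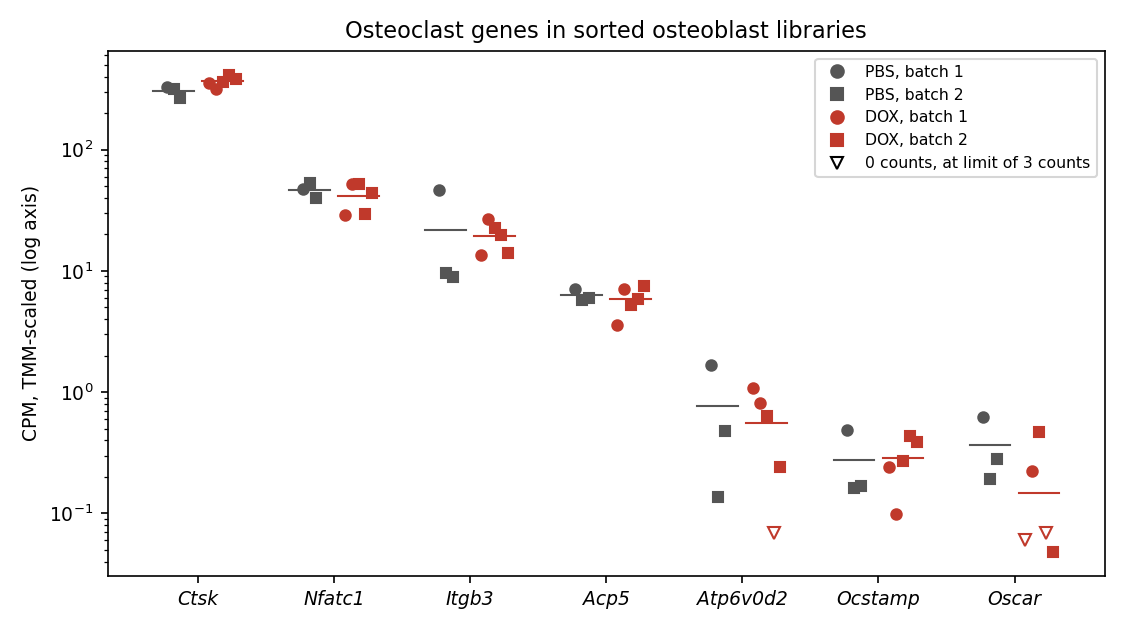
Level of each of the 7 osteoclast genes in each library, as TMM-scaled CPM on a log axis. Points are libraries (circles batch 1, squares batch 2), lines are group means, and open triangles mark libraries with 0 counts, drawn at the level of 3 counts. Ctsk lies between 266 and 416 CPM in every library, while Atp6v0d2, Ocstamp and Oscar lie at or below 1.67 CPM.

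The 250 bases before RefSeq's start of the gene are shown for Ctsk and Oscar, the members of highest and lowest mean CPM among those with values in RefSeq's table of promoters (it holds 4 of the 9, on GRCm38.p6). Capitals mark matches, on either strand, to GGAAA (the core read by NFAT factors), TGANTCA (AP-1), CATGTG (an E-box read by MITF) and TGTGGT (RUNX factors). These are shown to set the binding letters of NFATc1 beside the level of its known target genes.
Ctsk, chr3:95498960-95499209, + strand: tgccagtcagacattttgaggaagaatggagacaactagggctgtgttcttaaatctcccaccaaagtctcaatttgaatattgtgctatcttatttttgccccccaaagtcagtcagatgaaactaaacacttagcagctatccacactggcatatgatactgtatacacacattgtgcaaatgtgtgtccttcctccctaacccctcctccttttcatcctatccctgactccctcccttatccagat
Oscar, chr7:3616158-3616407, - strand: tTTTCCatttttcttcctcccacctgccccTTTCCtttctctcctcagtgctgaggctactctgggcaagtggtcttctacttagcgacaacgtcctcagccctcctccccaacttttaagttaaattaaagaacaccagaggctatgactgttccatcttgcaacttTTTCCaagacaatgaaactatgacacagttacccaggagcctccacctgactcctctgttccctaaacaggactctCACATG
The Oscar window held 3 matches to GGAAA and 1 to CATGTG, and the Ctsk window held no match to any of the 4. The 3 windows of Acp5, not printed, held 1, 1 and 2 matches to GGAAA, and the window with 2 also held 1 match to CATGTG. The first bases transcribed after the Oscar window were found in a GENCODE transcript, and those after the Ctsk window were not, so the start of Ctsk is RefSeq's alone. Of the Acp5 windows, only that with 2 matches to GGAAA had its first transcribed bases found there. Over all 32851 windows of this length in the table, 55.6% held GGAAA, 6.75% held TGANTCA, 12.3% held CATGTG and 14.0% held TGTGGT. The E-box letters in Oscar are the last 6 bases before the start. These matches are descriptions of the letters, and the build is not the one the counts were made on (GRCm39).

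Of the resorption enzymes, Ctsk was the most abundant member and Acp5 the fourth per kilobase. Ctsk encodes cathepsin K, the protease that cleaves type I collagen in the resorption pit. It stood at 328, 314 and 266 CPM in PBS replicates 1 to 3 and at 357, 314, 361, 416 and 382 CPM in DOX replicates 1 to 5. After TMM scaling the libraries lay close together, with a coefficient of variation of 13.6%, lower than that of all but 19.8% of the genes tested. Before scaling, the counts ran from 9395 in PBS replicate 3 to 18007 in DOX replicate 4, in libraries of similar total. Of the 5 DOX libraries, 4 lay above every PBS library, and the fifth, DOX replicate 2, lay below PBS replicate 1. The log2 fold change of Ctsk, DOX against PBS, was 0.27 ± 0.13 (SE; 95% interval -0.02 to 0.57), which did not pass (adjusted p = 0.995 in edgeR's quasi-likelihood test, unadjusted p = 0.0685). That test called 0% of the 15373 genes (0 of them) and had 571 genes at an unadjusted p under 0.05, which is 3.71%, and Ctsk was not among these. DESeq2, with the same terms, called 26 of 21154 genes (0.123%), and 15 when run on the genes that edgeR tested (0.0976%). The 6 members that edgeR tested were not among them, and the DESeq2 result for Oscar is not given. No member tested had all 5 DOX libraries above all 3 PBS libraries, as 1.24% of genes did, or below them, as 1.19% did. The fold change of Ctsk was 0.42 without PBS replicate 1 and 0.17 without PBS replicate 3, and by batch it was 0.01 in batch 1 and 0.42 in batch 2.

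Acp5 encodes tartrate-resistant acid phosphatase (TRAP), the enzyme whose staining defines osteoclasts in sections. It stood at 7.10, 5.75 and 6.01 CPM in PBS and at 3.58, 7.15, 5.24, 5.87 and 7.51 CPM in DOX. The groups overlapped, with DOX libraries at both the lowest and the highest value. Its log2 fold change was -0.10 ± 0.26 (SE), with a 95% interval of -0.68 to 0.47 (adjusted p = 0.995 in edgeR). The sign rested on single libraries: the value was 0.06 without DOX replicate 1, the lowest library, and 0.09 without PBS replicate 1. In GENCODE M21, on GRCm38, exons of Acp5 overlap those of a noncoding gene on the opposite strand, and without strand their reads cannot be told apart; the exons of the other 6 members overlap no other gene there.

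The 2 enzymes did not keep a fixed proportion. Per 1000 counts of Ctsk there were 21.6 counts of Acp5 in PBS replicate 1 (95% Poisson interval 19.5 to 23.9) and 22.7 in DOX replicate 2 (20.2 to 25.5), but 10.0 in DOX replicate 1 (8.59 to 11.6). The other 5 libraries lay between 14.1 and 22.6. Intervals here cover counting error only, since the reads carry no molecular identifiers.

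The transcription factor Nfatc1 was present in each library at a moderate level. It stood at 47.3, 52.7 and 39.7 CPM in PBS and at 28.8, 51.8, 51.9, 29.3 and 44.0 CPM in DOX. DOX replicates 1 and 4 lay below every PBS library, and the other 3 lay within the PBS range. The log2 fold change was -0.18 ± 0.23 (SE; 95% interval -0.68 to 0.32; adjusted p = 0.995 in edgeR). Leaving out DOX replicate 1 or 4 brought it to -0.066 or -0.063, and leaving out DOX replicate 2 to -0.31. Taking DOX replicate 1 as a PBS library gave 0.065.

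Itgb3 varied most among the members with more than 1 CPM. It encodes integrin β3, which pairs with αv to anchor the osteoclast to bone and with αIIb on platelets. It stood at 46.4 CPM in PBS replicate 1 and at 9.55 and 8.84 CPM in PBS replicates 2 and 3, against 13.6, 26.9, 22.7, 19.7 and 14.1 CPM in DOX. All 5 DOX libraries fell in the gap between PBS replicate 1 and the other PBS libraries. Over all libraries the log2 fold change was 0.13 ± 0.43 (SE; 95% interval -0.82 to 1.08; adjusted p = 0.995 in edgeR). In batch 1 it was -1.21, with both DOX libraries below the PBS library, and in batch 2 it was 1.04, with the 3 DOX libraries above both PBS libraries. Of the genes tested, 5.99% had this arrangement of libraries and 6.15% had its mirror image, so it is common in these data. The difference between the batches was 2.23 ± 0.48 on the log2 scale (SE), with an adjusted p of 0.198 in edgeR's test of the interaction, which called 0% of genes and had 11.7% at an unadjusted p under 0.05 (Itgb3: 0.00105). Batch 1 has a single PBS library, so batch and the peculiarity of PBS replicate 1 cannot be told apart. The direction of the fold change over all libraries therefore rests on single libraries: it was 1.04 without PBS replicate 1, -0.19 without PBS replicate 2 and -0.23 without PBS replicate 3.

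**Figure D2:**
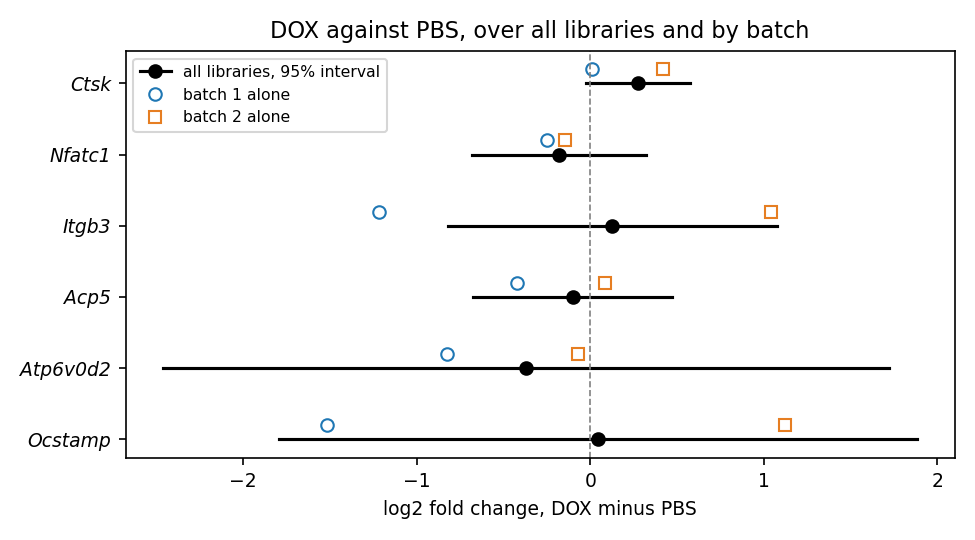
Log2 fold change, DOX minus PBS, of the 6 osteoclast genes tested. Filled points with bars are edgeR's estimates over all libraries with their 95% intervals, open circles are batch 1 alone (1 PBS, 2 DOX) and open squares are batch 2 alone (2 PBS, 3 DOX). Each interval includes 0, and Itgb3, Ocstamp and Acp5 (-0.42 and 0.083) lie on opposite sides of 0 in the 2 batches.

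Genes of fusion and costimulation lay near the limit of detection. Atp6v0d2, an isoform of a proton pump subunit that is needed for fusion of osteoclast precursors, stood at 1.67, 0.136 and 0.482 CPM in PBS and at 1.09, 0.819, 0.640, 0 and 0.241 CPM in DOX. It had 89 counts in PBS replicate 1 and 0 in DOX replicate 4, where 0 counts allow up to 0.0693 CPM. The 3 libraries of batch 1 held the 3 highest values. The log2 fold change was -0.37 ± 0.94 (SE; 95% interval -2.46 to 1.72; adjusted p = 0.995 in edgeR). Leaving out PBS replicate 1, 2 or 3 gave -0.07, -0.76 or -0.02, and leaving out DOX replicate 3 or 4 gave -1.10 or -0.08. All DOX libraries but DOX replicate 4 lay within the range of PBS.

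Ocstamp, which encodes a membrane protein that acts with DC-STAMP in fusion, had 100 counts over the 8 libraries. It stood at 0.488, 0.164 and 0.170 CPM in PBS and at 0.243, 0.0993, 0.271, 0.439 and 0.386 CPM in DOX, so that the DOX libraries spanned most of the PBS range. The log2 fold change was 0.04 ± 0.83 (SE; 95% interval -1.80 to 1.88; adjusted p = 0.998 in edgeR), with -1.52 in batch 1 and 1.12 in batch 2. Without PBS replicate 1 it was 1.13, and without PBS replicate 2 it was -0.37.

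Oscar, an immunoglobulin-like receptor that binds collagen and signals through FcRγ, had 80 counts in all and did not pass the filter, so no fold change is given. It stood at 0.620, 0.191 and 0.283 CPM in PBS and at 0, 0.223, 0.468, 0 and 0.0483 CPM in DOX. DOX replicates 1 and 4 had 0 counts, which allows up to 0.0606 and 0.0693 CPM. These are the same 2 libraries in which Nfatc1 was lowest.

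With both PBS replicate 1 and DOX replicate 1 left out, no member passed in edgeR. The log2 fold changes were then 0.42 for Ctsk, 1.04 for Itgb3, 1.12 for Ocstamp, 0.082 for Acp5, -0.07 for Atp6v0d2 and -0.14 for Nfatc1. Itgb3 and Ocstamp moved furthest from their values over all libraries.

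DOX replicate 4 shows the split between the members most plainly. It had the highest Ctsk of all libraries, 416 CPM from 18007 counts, and 0 counts of both Atp6v0d2 and Oscar. For every 1000 counts of Ctsk, PBS replicate 1 had 5.09 counts of Atp6v0d2 (95% Poisson interval 4.09 to 6.26) and DOX replicate 4 had none, where 3 counts would be 0.167. Of the counts of all 7 members, Ctsk took between 76.0% (Clopper-Pearson 95% interval 75.5% to 76.6%) in PBS replicate 1 and 88.3% (87.9% to 88.8%) in DOX replicate 1. Itgb3 took 10.7% (10.3% to 11.2%) in PBS replicate 1 and 2.49% (2.24% to 2.77%) in PBS replicate 2. In bulk samples, fewer cells of a type and less RNA per cell cannot be told apart.

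The members were also not seen to vary as a set in the tests below. With 8 libraries, and few counts of Atp6v0d2, Ocstamp and Oscar, these tests could miss a shared pattern. Over the 8 libraries, 13 of the 21 pairs of members had a positive Pearson r of log2 CPM, with a median of 0.28 and a range from -0.60 (Ctsk with Oscar) to 0.81 (Oscar with Nfatc1). No pair passed after Benjamini-Hochberg adjustment over the 21 pairs, for r or for Spearman's rho, in exact two-sided permutation tests over all pairings of libraries. At an unadjusted p under 0.05 there was 1 pair for r and 0 for rho. That pair, Oscar and Nfatc1, had r = 0.81 (exact permutation p = 0.0169, adjusted p = 0.355) and rho = 0.56 (exact permutation p = 0.155, adjusted p = 0.882). Without DOX replicates 1 and 4, the libraries farthest from the median of Oscar, r was 0.21, so the relation rests on those libraries. For Ctsk and Ocstamp r was 0.65 (exact permutation p = 0.0813, adjusted p = 0.675) and rho was 0.67 (exact permutation p = 0.0831, adjusted p = 0.882), and r was 0.57 without the 2 libraries farthest from the median of Ctsk. For Ctsk and Acp5 r was -0.13 (exact permutation p = 0.751, adjusted p = 0.815) and rho was -0.02 (exact permutation p = 0.977, adjusted p = 0.977), and r was -0.21 without the 2 farthest libraries. With CPM scaled by library totals alone, 19 of 21 pairs were positive, with a median r of 0.48, still with none passing. The signs thus depend on the scaling. A batch holds 3 or 5 libraries, under the 6 needed for a correlation, so no value is given within a batch. With batch means removed 12 of 21 pairs were positive, and with means of batch and group removed 9 were.

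**Figure D3:**
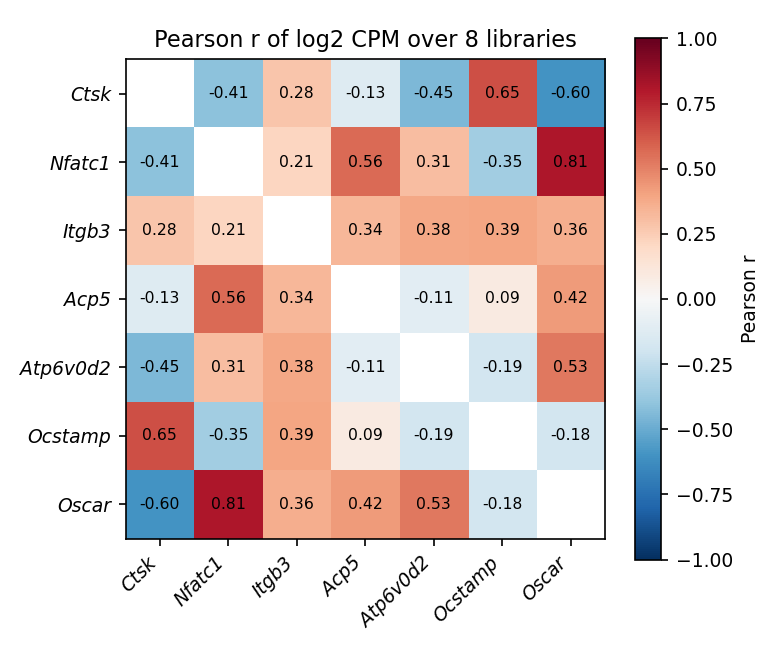
Pearson r of log2 CPM over the 8 libraries for each pair of the 7 osteoclast genes, written in each cell and coloured from -1 (blue) to 1 (red). Values run from -0.60 for Ctsk with Oscar to 0.81 for Oscar with Nfatc1, with no block of high values.

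Ranked by r with Ctsk, among 15373 genes, Ocstamp was at place 874, Itgb3 at 4777, Acp5 at 9476 and Oscar at 14209. Nfatc1 was at place 189 for Oscar, and Oscar was at place 299 for Nfatc1. The genes most like Ctsk over the 8 libraries were Txndc12, which encodes a thioredoxin-like protein of the endoplasmic reticulum (r = 0.98), the ephrin ligand gene Efna1 (0.96) and Vgll4, a TEAD cofactor gene (0.96). The genes most like Acp5 were Fut8, Cpne3 and Arl6ip1 (0.98 to 0.99), and those most like Nfatc1 were Gle1, Usp39 and Etv6 (0.97 to 1.00). For Itgb3 they were Isg20l2, Slc43a3 and Snx7 (0.97 to 0.99). For the members of low count they were Zfp322a, Msl2 and St7l (Atp6v0d2), Ptpn2, Rnmt and Nhp2 (Ocstamp) and Rab11fip3, Ctps and Taf2 (Oscar), with r between 0.95 and 0.98. With 8 libraries, shared scaling and many genes searched, these values are a description only.

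Receptors of the RANKL pathway had few counts. Tnfrsf11a, which encodes RANK itself, had 0 counts in 6 of 8 libraries, PBS replicates 1 to 3 included, and 9 and 5 counts in DOX replicates 2 and 5. Csf1r, the receptor for the survival factor M-CSF, averaged 1.24 ± 0.463 CPM over the PBS libraries (SD, n = 3) and 0.990 ± 0.247 CPM over the DOX libraries (SD, n = 5). Of the adaptors, Tyrobp stood at 0.253 ± 0.113 and 0.457 ± 0.244 CPM, and Fcer1g at 23.7 ± 2.35 and 24.3 ± 3.64 CPM. Per kilobase of exon Fcer1g was at 27.5 CPM and Tyrobp at 0.570 CPM. Trem2, a receptor that uses DAP12, had 0 counts in PBS replicates 2 and 3 and between 2 and 31 counts in the others. Of 20 genes listed for RANK and costimulatory signalling, 17 were analysed and 16 tested: 7 were higher and 9 lower in DOX (median log2 fold change -0.01), and none passed in edgeR. Of all genes tested, 8145 were higher and 7228 lower (median 0.02). At an unadjusted p under 0.05 there was 1 gene of the list, Fos (0.43 ± 0.18, SE; adjusted p = 0.995), an AP-1 factor that most cells induce, named after its value was seen.

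Of 20 genes listed for the resorption machinery, 19 were tested, 6 higher and 13 lower in DOX (median log2 fold change -0.06), and none passed in edgeR. Among the genes needed for acid secretion, the proton pump subunit gene Tcirg1 averaged 14.4 ± 0.717 CPM over the PBS libraries (SD, n = 3) and 15.1 ± 4.91 CPM over the DOX libraries (SD, n = 5). Clcn7, the chloride transporter, averaged 26.3 ± 2.48 and 23.6 ± 4.47 CPM in the same order, and its partner Ostm1 averaged 20.3 ± 4.52 and 17.7 ± 2.92 CPM. The ranges of the groups overlapped for all 3 genes. Ckb, which encodes creatine kinase B, had the highest mean of the list (465 CPM). Car2, carbonic anhydrase 2, which supplies protons, had a log2 fold change of -0.45 ± 0.17 (SE; unadjusted p = 0.0208, adjusted p = 0.995 in edgeR) and was the single gene of the list at an unadjusted p under 0.05. Its value was -0.26 without PBS replicate 3. Mmp9, a gelatinase abundant in osteoclasts, stood at 22.8 CPM in PBS replicate 1 and between 2.44 and 11.6 CPM in the other 7 libraries. Its log2 fold change was -0.70 ± 0.51 (SE; adjusted p = 0.995 in edgeR), and -0.03 without PBS replicate 1.

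Among transcription factors of the lineage, Spi1, which encodes the myeloid factor PU.1, averaged 0.583 ± 0.496 CPM over the PBS libraries (SD, n = 3) and 0.707 ± 0.464 CPM over the DOX libraries (SD, n = 5). Mitf averaged 2.23 ± 0.487 and 2.37 ± 1.02 CPM in the same order, and Irf8, a repressor of osteoclast formation, 3.83 ± 1.32 and 3.71 ± 0.212 CPM. Junb, an AP-1 factor, had the highest mean of the list (126 CPM). Of 14 genes listed, 12 were tested, 5 higher and 7 lower (median log2 fold change -0.03), and none passed in edgeR. Id2, named after its value was seen, was the single gene at an unadjusted p under 0.05 (0.50 ± 0.20, SE; adjusted p = 0.995), and each of its 5 DOX libraries exceeded the highest PBS library.

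Markers of other cells that a sort could carry were counted in the same libraries. The 18 monocyte and macrophage genes analysed, of 20 listed, summed to between 10.6 and 11.1 CPM in PBS and between 10.6 and 20.2 CPM in DOX, against 322 to 432 CPM and 401 to 471 CPM for the 7 members. The highest of them were Cd14, a receptor for bacterial lipid, with a mean of 3.59 CPM over the 8 libraries (2.61 to 4.73, none at 0), Laptm5 (2.31 CPM) and Ly6c2 (1.49 CPM). Others were lower, 14 of the 18 having a mean under 1 CPM: Adgre1 (F4/80) had 0 counts in 4 libraries, Lyz2 averaged 0.566 ± 0.710 CPM over the PBS libraries (SD, n = 3) and 1.20 ± 0.539 CPM over the DOX libraries (SD, n = 5), and 7 of the 18 had 0 counts in 4 or more libraries. Of 10 tested, 7 were higher and 3 lower in DOX, with 0 called and 0 at an unadjusted p under 0.05. Cells of the periosteal and Ctsk-lineage stroma can also express Ctsk. The 9 genes listed for them summed to 1061 to 1687 CPM in PBS and 985 to 1422 CPM in DOX. By mean over the 8 libraries, Cd200 (600 CPM) and Postn (483 CPM) led, then Ccn2 (99.7 CPM) and Prrx1 (63.2 CPM). Acta2 (3.90 CPM), Ly6a (3.28 CPM) and Gli1 (1.28 CPM) were far lower. Thy1 and Mx1 had 18 and 11 counts in all. The sum thus rests mostly on Cd200 and Postn, and the part of these cells in the level of Ctsk was not tested. The 11 megakaryocyte and platelet genes, cells that also express Itgb3, summed to 27.9 CPM in PBS replicate 1, 1.39 and 0.623 CPM in PBS replicates 2 and 3, and 4.22 to 15.3 CPM in DOX. Of 8 tested, all 8 had a positive log2 fold change in edgeR's fit, which has a term for batch (median 1.07). In that fit 0 were called and 0 had an unadjusted p under 0.05. Pf4, a platelet chemokine, was at 4.69 CPM in PBS replicate 1, at 0.0818 and 0.0283 CPM in PBS replicates 2 and 3, and at 0.372 to 2.24 CPM in DOX. Plain means were higher in PBS for Pf4 (1.60 CPM against 1.30 in DOX), Ppbp (6.33 against 4.61) and Gp9 (0.332 against 0.253). For the other platelet genes tested the means were higher in DOX. Itga2b, the platelet partner of integrin β3, averaged 0.589 ± 0.519 CPM over the PBS libraries (SD, n = 3) and 0.661 ± 0.607 CPM over the DOX libraries (SD, n = 5). Its highest library was DOX replicate 1 (1.68 CPM). Of the 11 platelet genes, 3 had the order of libraries seen in Itgb3, namely Pf4, Ppbp and Gp9, and 8 did not. In this order PBS replicate 1 was highest, then the DOX libraries, then the other PBS libraries. It was also seen in 3 of 11 neutrophil genes and 2 of 9 periosteal and Ctsk-lineage genes, and in no B cell, erythroid or endothelial gene listed. Its share over all genes was not counted. The looser arrangement by batch, given above for Itgb3, was met by 5.99% of genes tested. The part of megakaryocytes and platelets in the level of Itgb3 was not tested.

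**Figure D4:**
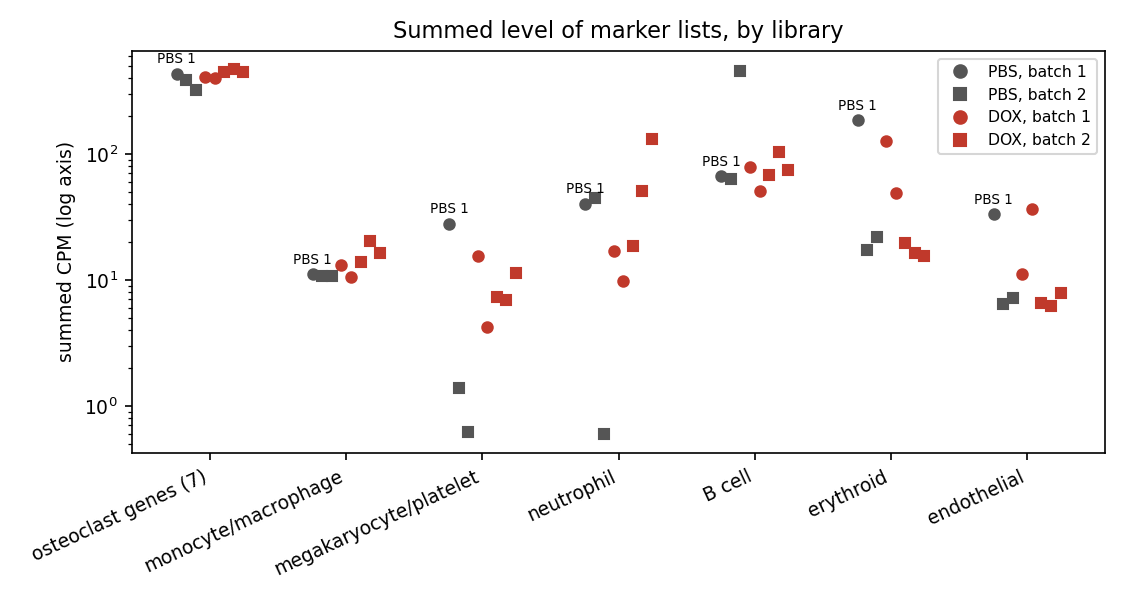
Summed CPM, on a log axis, of the 7 osteoclast genes and of marker lists of 6 other cell types, for each library (circles batch 1, squares batch 2; PBS replicate 1 is named). The sum of the members, of which Ctsk makes up 76.0% to 88.3% of counts, stays between 322 and 471 CPM, while the megakaryocyte and platelet list runs from 0.623 to 27.9 CPM.

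PBS replicate 1 was the highest library for 4 of the 7 members, Itgb3, Atp6v0d2, Oscar and Ocstamp, but not for Ctsk, Acp5 or Nfatc1. It was the highest library for 18.4% of all genes tested, and for Mmp9, Pf4, Ppbp, the globin gene Hbb-bs (56.2 CPM against 0.772 to 45.1) and the endothelial gene Pecam1 (4.47 CPM against 0.573 to 2.33). The summed erythroid list was 186 CPM in that library, 126 and 48.9 CPM in DOX replicates 1 and 2, and 15.4 to 21.7 CPM in batch 2. The endothelial list was 33.1 CPM in PBS replicate 1, 36.7 in DOX replicate 2 and 6.26 to 11.2 CPM in the other 6. DOX replicate 1, second in the erythroid sum, had 0 counts of Oscar. The part of these cells in the 4 members' values was not tested.

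Each member was also set against 6 reference genes, in 42 pairs. None passed after adjustment over the 42 pairs, for r or rho, and 5 had an unadjusted p under 0.05 for r. The strongest was between Nfatc1 and Adgre1, with r = -0.87 (exact permutation p = 0.00774, adjusted p = 0.325), rho = -0.85 (exact permutation p = 0.0143, adjusted p = 0.309) and r = -0.81 without DOX replicates 1 and 4. Nfatc1 and Csf1r had r = 0.80 (exact permutation p = 0.0196, adjusted p = 0.397), rho = 0.79 (exact permutation p = 0.0279, adjusted p = 0.309) and r = 0.77 without the same libraries. These 2 macrophage markers had opposite signs with Nfatc1. Adgre1 had 110 counts in all and 0 counts in 4 libraries, so many of its values lie at the floor. Ctsk and the platelet gene Pf4 had r = 0.71 (exact permutation p = 0.0475, adjusted p = 0.397), rho = 0.62 (exact permutation p = 0.115, adjusted p = 0.537) and r = 0.47 without PBS replicate 3 and DOX replicate 4. Ocstamp and Pf4 had r = 0.76 (exact permutation p = 0.0326, adjusted p = 0.397), rho = 0.76 (exact permutation p = 0.0368, adjusted p = 0.309) and r = 0.81 without PBS replicate 1 and DOX replicate 2. Ocstamp and Col1a1, a collagen gene, had r = -0.73 (exact permutation p = 0.0456, adjusted p = 0.397), rho = -0.76 (exact permutation p = 0.0368, adjusted p = 0.309) and r = -0.66 without the same libraries. Tnfrsf11a was at 0 in 6 of the 8 libraries, so its correlations are not given.

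Of 14 genes listed for factors that regulate osteoclasts, 12 were tested, 4 higher and 8 lower in DOX (median log2 fold change -0.07), and none passed in edgeR. Efnb2 was the single gene at an unadjusted p under 0.05 (-0.54 ± 0.23, SE, adjusted p = 0.995 in edgeR), named after its value was seen. Of the 14, 7 were highest in PBS replicate 1, as 18.4% of all genes tested were. Sema3a and Lgr4 were lowest there, a share not counted over all genes. Tnfsf11, which encodes RANKL, stood at 26.0 CPM there and between 1.67 and 15.2 CPM in the other 7 libraries, Tnfrsf11b, its decoy receptor, at 112 CPM against 21.7 to 37.3, and Csf1, which encodes M-CSF, at 276 CPM against 108 to 258.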

How the data were processed

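The authors deposited 1 table of raw counts, genes by libraries, from cDNA made with a SMART-Seq kit that amplifies from little RNA. Per the submitters' processing notes the authors' tools were STAR 2.7.9a, featureCounts 2.0.1, Trim Galore 0.6.6, FastQC 0.11.5, SAMtools 1.17 and MultiQC 1.7, and the build was GRCm39. Annotation, strand setting and the handling of multi-mapped reads: not given in the sources used here. Each gene in the table has at least 10 counts over the libraries.

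The main test was edgeR 4.0.16 in R 4.3.3 (quasi-likelihood test, TMM scaling, filterByExpr, terms for batch and group, two-sided, Benjamini-Hochberg adjustment over all 15373 genes tested, threshold 0.05). DESeq2 1.42.0 and limma 3.58.1 were alternatives. Each standard error is the fold change over the root of its F value. Log2 CPM for correlations carried a prior count of 2. Exon lengths were the union of exons in GENCODE M21, found for all 7 members. The fits and the permutation tests were checked on simulated data. Correlations and figures used Python 3.11.15, with exact permutation over libraries.

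The members, lists and tests were chosen with earlier results of these data known. The genes named are the members and a fixed panel from the lists with each list's highest gene. The 3 genes most like each member are also named (at least 1 log2 CPM, standard symbols). Others were named after their values were seen, namely Fos, Id2, Efnb2, Laptm5, Ly6c2, Gp9, Sema3a and Lgr4. So were Postn, Ccn2, Prrx1, Acta2, Ly6a, Gli1, Thy1 and Mx1. The values of 1 other gene of that panel are not reported here.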

Additional observations from a re-analysis of the deposited data

Results flagged for a closer look

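Within the 5 DOX libraries, 4 of 30 genes checked had a library set apart from the other 4 by Dixon's criterion, which chance alone meets in about 1 of 20 groups, and none of the 4 was among the 7 osteoclast genes. DOX replicate 2 was the highest library for the endothelial gene Pecam1 (2.33 CPM, next 0.821) and the RANKL gene Tnfsf11 (15.2 CPM, next 7.09). It was the lowest for the adaptor gene Tyrobp (0.0248 CPM, next 0.507). DOX replicate 1 was the highest for Mitf (4.14 CPM, next 2.33).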

How the results depend on the processing

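Against 0 genes called in the main test, DESeq2 called 26 in the whole table and 15 among the genes that edgeR tested, and edgeR called 96 in batch 1 alone, a fit of 1 PBS and 2 DOX libraries; the other 17 alternatives called 0 (leaving out 1 library each: 0 to 0). At an unadjusted p under 0.05 edgeR had 571. None of the 6 members tested in the main fit passed under any alternative. Outside batch 1 alone, the smallest adjusted p was 0.272 in edgeR (Itgb3, batch 2 alone). Oscar, which did not pass the filter, was not followed over the alternatives. Ctsk kept its direction in all 20 alternatives (0.01 to 0.42). With PBS replicate 1 left out, batch 1 holds no PBS library. The fits of batch 2 alone, without PBS replicate 1, and without both PBS replicate 1 and DOX replicate 1 are therefore not separate checks. Acp5 turned positive in batch 2 alone (0.083), with DOX replicate 1 counted as PBS (0.20), with both PBS replicate 1 and DOX replicate 1 left out (0.082), and with either of these left out (0.088 and 0.056; leaving out 1 library each: -0.24 to 0.088). Ocstamp turned negative in batch 1 alone (-1.52), in the fit with a replicate block (-0.36) and without PBS replicate 2 (-0.37), PBS replicate 3 (-0.35), DOX replicate 4 (-0.12) or DOX replicate 5 (-0.06; range -0.37 to 1.13). Atp6v0d2 turned positive with the replicate block (0.68; leaving out 1 library each: -1.10 to -0.02). Itgb3 turned negative with no batch term (-0.16), in batch 1 alone (-1.21) and without PBS replicate 2 (-0.19), PBS replicate 3 (-0.23) or DOX replicate 3 (-0.03; range -0.23 to 1.04). Nfatc1 turned positive with DOX replicate 1 counted as PBS (0.065; leaving out 1 library each: -0.31 to -0.063). The cause was not tested. Mmp9 passed in batch 1 alone (-1.70, adjusted p = 0.0165). The test of the Itgb3 difference between batches, added after seeing the data, passed without DOX replicate 2 (2.81, adjusted p = 0.0443) and under none of the other 10 alternatives.

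For pairs of a member and a reference gene, 4 passed for r with library totals as scaling, 2 for r and 3 for rho with both PBS replicate 1 and DOX replicate 1 left out, and 0 otherwise; Nfatc1 with Csf1r was among them (r = 0.91 in both). No pair of members passed under any of the 14 alternatives; with means of batch and group removed, 24 pairings allow no p below 0.0417, so none could pass. Replicate numbers 1 to 3 are shared between the groups. Same-numbered libraries had correlations of their deviations from group means of 0.25, -0.05 and 0.24. The DOX library most like PBS replicate 1 was DOX replicate 1, and DOX replicate 3 was most like both PBS replicates 2 and 3. With 3 pairs and batch not removed, these values cannot decide whether the numbers pair the libraries. The replicate block called 0 genes. Few counts limit the precision for Atp6v0d2, Ocstamp and Oscar, with 234, 100 and 80 in all.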
